A study of Mus musculus with 8 samples.

Results

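The retinoid (visual) cycle genes examined here were Rdh8, Rdh12, Rbp3, Rlbp1, Rdh10, Rpe65, Rdh5, Rdh11 and Dhrs3. These 9 genes were chosen by name, and all of them were among the 43472 gene symbols of the count tables. They were grouped by the cells in which they are known to act, as photoreceptor genes (Rdh8, Rdh12, Rbp3), Müller glia genes (Rlbp1, Rdh10), pigment epithelium genes (Rpe65, Rdh5) and 2 genes used by several cell types (Rdh11, Dhrs3). The RNA came from the neural retinas of mice on a C57BL/6J background aged 3 weeks, and each library pooled the 2 retinas of a single animal. Controls were 3 Mfp2+/+ mice and 1 Mfp2+/- mouse (control replicate 2), and they were compared with 4 Mfp2-/- mice. The Mfp2-/- mice lacked MFP2, the peroxisomal enzyme of very long chain fatty acid breakdown encoded by Hsd17b4, in every tissue and throughout development, so that their retinas formed in an animal without MFP2 in its other organs either. The neural retina was lifted off the pigment epithelium before extraction, so that Rpe65 and Rdh5 were read in a tissue from which their main source had been removed.

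Light turns 11-cis-retinal, the ligand bound to the visual pigment, into all-trans-retinal. In the photoreceptor, retinol dehydrogenases such as RDH8 and RDH12 reduce all-trans-retinal to all-trans-retinol, which the binding protein IRBP, the product of Rbp3, carries across the space between photoreceptors and pigment epithelium. In the pigment epithelium the retinol is esterified by LRAT, isomerized to 11-cis-retinol by RPE65 and oxidized to 11-cis-retinal by RDH5, with the binding protein CRALBP, the product of Rlbp1, holding the 11-cis forms. CRALBP is also abundant in Müller glia, where it takes part in a retinoid supply to cones. Loss of function of RDH12, RPE65, RLBP1, RDH5 or RBP3 is known to cause inherited retinal disease in humans.

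As a check of genotype, Hsd17b4 reads numbered 47, 20, 78 and 37 in control replicates 1 to 4, against 1, 0, 1 and 0 in the Mfp2-/- libraries. The control to Mfp2-/- ratio of the summed counts was 87.3 after scaling to library size (95% exact interval 23.8 to 727, which covers counting error only). Depth was 2340974 to 3226187 counts in genes per control library and 1895485 to 2826553 per Mfp2-/- library. Mfp2-/- replicates 2 and 3 stood apart in the share of reads outside annotated genes, and each result is therefore also given without both where this changed a call. The summed level of 16 rod markers was 32424 to 37523 CPM (counts scaled to a common library total with TMM factors) in control and 1404 to 1992 CPM in Mfp2-/- libraries. The retinal identity of the tissue was thus plain in the controls, and the summed level of 16 pigment epithelium markers was low beside it, at 293 to 508 CPM in control and 491 to 810 CPM in Mfp2-/- libraries.

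Of the 9 genes, 8 passed the filter on low counts and Rdh8 did not. In edgeR's quasi-likelihood test over 12516 genes (adjusted p under 0.05), 4 of the 8 were lower in Mfp2-/- retinas (Rdh12, Rbp3, Dhrs3 and Rdh11), 1 was higher (Rdh10) and 3 did not pass (Rlbp1, Rpe65 and Rdh5). Over all genes tested 13.2% were called lower and 13.8% higher. The 4 Mfp2-/- libraries lay below all 4 control libraries for the same 4 genes, against 15.8% of all genes, and above them for Rdh10, against 15.1% of all genes. Calls over all genes were 51.2% upward with TMM factors, 64.2% upward with upper-quartile factors and 65.2% with no factors, and these other scalings raised the median change over all genes, on the log2 scale, from -0.0039 to 0.12. The calls of the 8 genes were the same under each scaling.

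**Figure D1:**
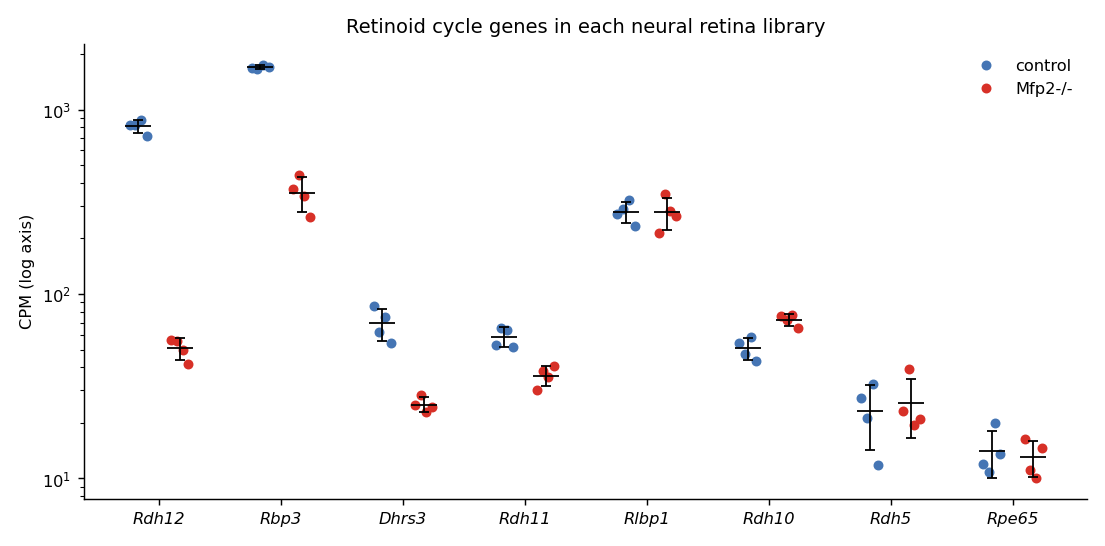
Normalized level (CPM, logarithmic axis) of 8 retinoid cycle genes in the 4 control (blue) and 4 Mfp2-/- (red) libraries, with a horizontal bar at the mean and error bars of 1 SD. The groups are separate for Rdh12, Rbp3, Dhrs3, Rdh11 and Rdh10 and overlap for Rlbp1, Rdh5 and Rpe65.

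Rdh12 encodes the dehydrogenase of the photoreceptor inner segment, which clears retinal and other aldehydes (chromosome 12, 79208914 to 79222665, plus strand, of GRCm38). Its level was 829, 822, 875 and 721 CPM in control replicates 1 to 4 and 56.6, 55.4, 49.4 and 41.9 CPM in Mfp2-/- replicates 1 to 4. The lowest control thus stood at more than 10 times the highest Mfp2-/- library. The mean fell from 812 ± 64.8 to 50.8 ± 6.7 CPM (SD, n = 4 each) or by 4.00 on the log2 scale (standard error 0.15, edgeR adjusted p = 1.0e-07). Rdh12 was the 89th most abundant of the 12516 genes in control retinas and the 3691st in Mfp2-/- retinas, and its fold change was the 52nd lowest. In bulk retinas, a change in the number of cells of a type and a change in the RNA per cell cannot be told apart, for this and the other genes.

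Rbp3 encodes IRBP, which rods and cones secrete (chromosome 14, 33954003 to 33964216, plus strand). It was the most abundant of the 9 genes, with 1679, 1657, 1750.4 and 1710.0 CPM in control replicates 1 to 4 and 369.8, 443, 342 and 263 CPM in Mfp2-/- replicates 1 to 4. The controls lay close together, and all Mfp2-/- libraries were far below them with a wider relative spread. The mean fell from 1699 ± 40.7 to 354 ± 74.3 CPM (SD, n = 4 each), a log2 fold change of -2.26 (standard error 0.16, edgeR adjusted p = 3.2e-06). Its rank among the 12516 genes went from 29 to 271, so that Rbp3 was still an abundant transcript in the Mfp2-/- retina.

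Rdh8 encodes the dehydrogenase of the photoreceptor outer segment (chromosome 9, 20818503 to 20826117, plus strand). It had 3, 0, 2 and 2 counts in the control libraries and 1, 0, 1 and 0 counts in the Mfp2-/- libraries. The sums of 7 and 2 counts gave a control to Mfp2-/- ratio of 3.36 with a 95% exact interval of 0.639 to 33.1, so that no difference was detectable at this depth. The RefSeq end of Rdh8 lies 1941 bases beyond the end in the GENCODE M21 annotation on the same genome. Which annotation was used for counting is not given in the sources used here, and whether reads of the 3′ end fell outside the counted gene was not tested. The 9 counts are therefore no measure of how much Rdh8 RNA the retina held.

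To place the upstream sequence of the genes beside their levels, RefSeq promoters of GRCm38.p6 were searched on both strands for TAATCC or, with another last base, TAATCT, as bound by the photoreceptor factor CRX, and for TGCTGA, part of the binding sequence of the rod factor NRL. Promoters were given for 8 of the 9 genes and not for Rdh10. Shown are the 170 bases from 200 to 31 bases before the start of the 2 photoreceptor genes that fell and, for contrast, of a pigment epithelium gene and a Müller glia gene that did not pass the test, in the direction of the gene, with either CRX sequence, or its reverse complement, in capitals.

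Rdh12 (chr12:79208713-79208882, plus strand): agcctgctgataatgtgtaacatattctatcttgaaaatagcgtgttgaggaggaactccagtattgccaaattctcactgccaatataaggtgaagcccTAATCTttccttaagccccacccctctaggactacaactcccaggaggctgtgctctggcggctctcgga

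Rbp3 (chr14:33953803-33953972, plus strand): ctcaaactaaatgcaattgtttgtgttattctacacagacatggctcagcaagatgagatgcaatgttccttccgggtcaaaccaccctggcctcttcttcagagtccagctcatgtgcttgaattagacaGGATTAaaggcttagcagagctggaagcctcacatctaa

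Rpe65 (chr3:159598981-159599150, plus strand): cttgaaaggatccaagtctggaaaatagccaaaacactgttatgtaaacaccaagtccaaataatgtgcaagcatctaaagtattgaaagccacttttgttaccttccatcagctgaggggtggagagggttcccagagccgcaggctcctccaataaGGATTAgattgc

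Rlbp1 (chr7:79387058-79387227, minus strand): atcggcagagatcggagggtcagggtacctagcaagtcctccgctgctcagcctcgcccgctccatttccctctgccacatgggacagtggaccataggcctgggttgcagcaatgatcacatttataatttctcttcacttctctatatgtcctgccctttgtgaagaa

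Rdh12 held TAATCT at position -100 from its start, and Rbp3 held TAATCC on the reverse strand, read as GGATTA, at position -69. Rpe65 held the same GGATTA at position -42, although its level did not pass the test, and the Rlbp1 stretch held neither sequence. In the full windows of 300 bases, TGCTGA or its reverse complement occurred in Rdh12 and Rdh8, 2 times each, in Rbp3 and in Rlbp1, 1 time each. Dhrs3 and Rdh11 each held TAATCT, Rpe65 held it at position 34 in addition to its GGATTA, and Rdh8, Rdh5 and Rlbp1 held neither CRX sequence. The sequences were thus found in genes that passed the test as well as in genes that did not. A CRX sequence was in each of the 4 genes called lower and, of the 3 not called, in Rpe65 only. In Rdh12, Dhrs3 and Rdh11 the match was TAATCT alone. TAATCC was held only by Rbp3, called lower, and Rpe65, not called. Dhrs3 and Rdh11 had more than 1 promoter entry, not all of which held TAATCT. The shares that follow are per promoter and not per gene. At least 1 of the CRX sequences was present in 14.4% and TGCTGA in 19.5% of all 32851 RefSeq promoters. The sequences were chosen for the search after these promoters had been read, so that the tally over called and uncalled genes is no test. A match is a description of letters, not a site of binding.

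Dhrs3, also known as retSDR1, reduces all-trans-retinal and limits retinoic acid formation in many tissues, and in the retina it has been placed in cones (chromosome 4, 144892827 to 144928209, plus strand). Its level was 85.9, 62.0, 74.8 and 54.3 CPM in control replicates 1 to 4 and 25.1, 28.5, 22.9 and 24.3 CPM in Mfp2-/- replicates 1 to 4. The controls were spread widely, and the Mfp2-/- libraries lay together well below the lowest of them. The mean fell from 69.3 ± 13.9 to 25.2 ± 2.4 CPM (SD, n = 4 each), a log2 fold change of -1.46 (standard error 0.17, edgeR adjusted p = 1.1e-04). Among the 8 genes tested the fall of Dhrs3 came after those of Rdh12 and Rbp3 in size.

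Rdh11 encodes a dehydrogenase of broad tissue distribution that acts on all-trans and cis retinoids (chromosome 12, 79174337 to 79192293, minus strand). It lies 16620 bases from Rdh12 on the same chromosome. Its level was 53.1, 65.6, 64.2 and 51.6 CPM in control replicates 1 to 4 and 30.1, 38.1, 35.6 and 40.8 CPM in Mfp2-/- replicates 1 to 4. The groups did not overlap, but the highest Mfp2-/- library came near the lowest control. The mean fell from 58.6 ± 7.3 to 36.2 ± 4.6 CPM (SD, n = 4 each), a log2 fold change of -0.70 (standard error 0.15, edgeR adjusted p = 0.0058). The neighbours on chromosome 12 thus fell by different amounts, a difference set out as a ratio below.

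Rlbp1 encodes CRALBP (chromosome 7, 79374870 to 79387048, minus strand). It was measured at 272, 290.0, 323 and 232 CPM in control replicates 1 to 4 and at 215, 349, 280.4 and 265 CPM in Mfp2-/- replicates 1 to 4. The lowest and the highest library were both Mfp2-/- libraries, so the groups overlapped fully. The means were 279 ± 37.6 and 277 ± 55.2 CPM (SD, n = 4 each), and the log2 fold change of -0.01 (standard error 0.17) had an approximate 95% interval of -0.42 to 0.40 (edgeR adjusted p = 0.965). The interval spans a level in Mfp2-/- retinas of 0.75 to 1.32 times that in controls. Rlbp1 was the 493rd most abundant gene in control and the 404th in Mfp2-/- retinas.

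Rdh10 encodes a dehydrogenase that oxidizes all-trans-retinol for retinoic acid synthesis and, in Müller glia and pigment epithelium, can oxidize 11-cis-retinol (chromosome 1, 16105774 to 16133734, plus strand). It was the only one of the 9 genes called higher. Its level was 54.6, 47.0, 58.7 and 43.5 CPM in control replicates 1 to 4 and 76.1, 72.2, 76.6 and 65.1 CPM in Mfp2-/- replicates 1 to 4. Every Mfp2-/- library was above every control, by a narrow margin between Mfp2-/- replicate 4 and control replicate 3. The mean rose from 51.0 ± 6.9 to 72.5 ± 5.3 CPM (SD, n = 4 each), a log2 fold change of 0.51 (standard error 0.14, edgeR adjusted p = 0.0189). The call was lost without control replicate 2 (log2 fold change 0.46, edgeR adjusted p = 0.0644), without control replicate 4 (0.45, adjusted p = 0.0569) or without Mfp2-/- replicate 3 (0.48, adjusted p = 0.0581).

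Rpe65 encodes the isomerase of the pigment epithelium (chromosome 3, 159599175 to 159625321, plus strand). It was low in every library, at 12.01, 10.9, 20.0 and 13.6 CPM in control replicates 1 to 4 and at 16.3, 11.2, 10.1 and 14.7 CPM in Mfp2-/- replicates 1 to 4. The groups overlapped, and the 22 to 62 counts behind each value limited the precision. The log2 fold change was -0.12 (standard error 0.25, approximate 95% interval -0.74 to 0.50, edgeR adjusted p = 0.758). Rdh5 encodes the 11-cis-retinol dehydrogenase of the same cells (chromosome 10, 128913593 to 128922888, minus strand). Its level was 27.3, 21.3, 32.6 and 11.8 CPM in control replicates 1 to 4 and 23.4, 39.1, 19.5 and 21.0 CPM in Mfp2-/- replicates 1 to 4. Control replicate 4 was the lowest and Mfp2-/- replicate 2 the highest library, and the log2 fold change of 0.12 (standard error 0.31) had an approximate 95% interval of -0.64 to 0.89 (edgeR adjusted p = 0.799). The counting of Rdh5 is uncertain, because it shares 25.6% of its exon bases with Bloc1s1 on the same strand and 22.8% of the 50-base sequences in the last 500 bases of its transcripts also occur in Bloc1s1 or Gm7936. The shared exon bases lie further than 500 bases from the 3′ end of the gene, and Bloc1s1 had 17 counts over the 8 libraries against 515 for Rdh5. Reads on shared bases may be missing from both counts, so these counts do not settle how complete that of Rdh5 is. This was not tested. For the other 8 genes 0 such 50-base sequences were shared with another gene.

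**Figure D2:**
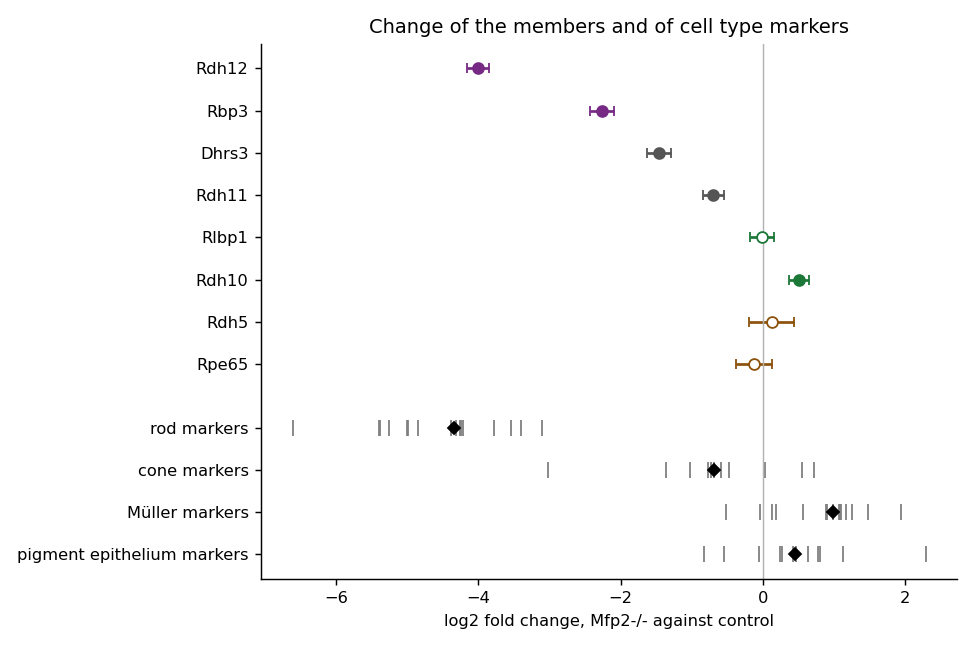
Log2 fold change, Mfp2-/- against control, of 8 retinoid cycle genes with bars of 1 standard error (filled points passed an adjusted p of 0.05 and open points did not) above the fold changes of the tested markers of 4 cell types (short lines, with a diamond at the median). Rdh12 lies within the range of the rod markers, Rbp3 above it, and Rlbp1 at -0.01 lies below the median of the Müller markers at 0.99.

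The pigment epithelium markers were examined for what could carry Rpe65 and Rdh5 counts into a neural retina library. Ttr and Dct made up 67.3% to 75.0% of the summed marker level in control and 73.0% to 81.0% in Mfp2-/- libraries. Best1 was near 0, with 5 counts in control and 7 in Mfp2-/- libraries, as were Tyr, with 2 and 7, and Slc45a2, with 10 and 7. Other markers were present, with means of 34.2 CPM in control and 19.4 CPM in Mfp2-/- libraries for Rgr, 17.7 and 23.9 CPM for Pmel, 12.7 and 15.2 CPM for Mitf and 7.70 and 13.3 CPM for Tyrp1. Of the 16 markers 12 were tested. In edgeR's test 2 were higher (Slc6a20a at a log2 fold change of 2.29 and Rrh at 0.64) and 0 were lower. Over all genes tested 13.8% were called higher and 13.2% lower. The median log2 fold change of the markers was 0.45 against -0.0039 for all genes. Rrh lost its call in 11 of 20 alternative settings. The number of markers higher was 4 without control replicate 1 or Mfp2-/- replicate 4. It was 1 without control replicate 2, 3 or 4, without Mfp2-/- replicate 2 or 3, or without both of these. Without control replicate 4, 1 marker was lower. The order of Rdh5 over the libraries of a group was that of the summed markers in both groups, namely control replicates 3, 1, 2 and 4 and Mfp2-/- replicates 2, 1, 4 and 3 from high to low. Without Ttr in the sum the marker order differed from that of Rdh5 in both groups, and Rpe65 did not follow the summed markers in either. The part of carried-over pigment epithelium in the levels of Rdh5 and Rpe65 was not tested.

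**Figure D3:**
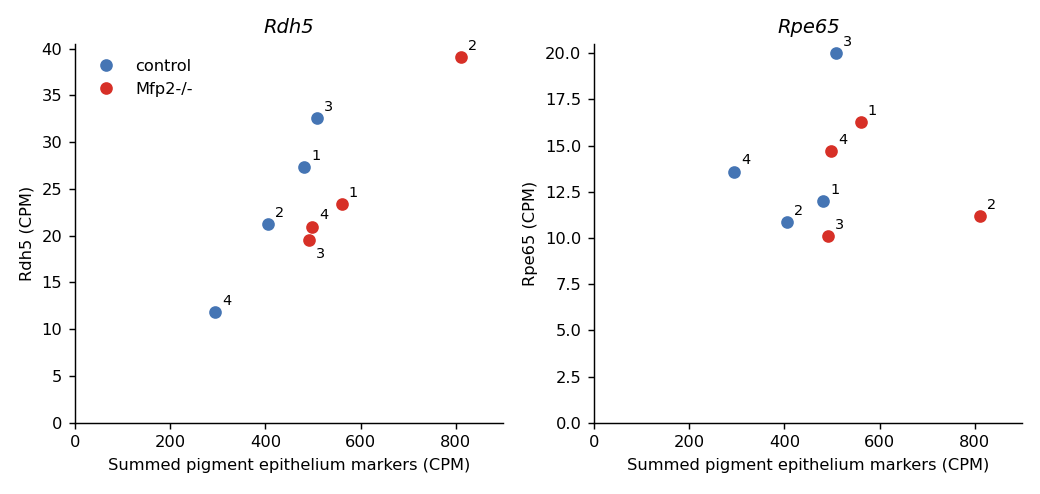
Level of Rdh5 (left) and Rpe65 (right) in CPM against the summed CPM of 16 pigment epithelium markers in the same library, with control libraries in blue, Mfp2-/- libraries in red and the replicate number beside each point. Rdh5 runs in the order of the marker sum within each group and Rpe65 does not.

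Because the libraries read the 3′ end of each transcript, counts do not grow with transcript length, and levels of different genes can be set side by side in CPM, apart from gene by gene differences in capture. In control retinas the order was Rbp3, Rdh12, Rlbp1, Dhrs3, Rdh11, Rdh10, Rdh5, Rpe65 and Rdh8. Dhrs3 overlapped Rdh11, Rdh11 overlapped Rdh10 and Rdh5 overlapped Rpe65 over their 4 libraries, and the other neighbours were separate. In Mfp2-/- retinas the order was Rbp3, Rlbp1, Rdh10, Rdh12, Rdh11, Rdh5, Dhrs3, Rpe65 and Rdh8. There, Rbp3 overlapped Rlbp1, Rdh11 overlapped Rdh5 and Rdh5 overlapped Dhrs3. Rdh10 had passed Rdh12 without overlap, and the ranges of Rbp3 and Rlbp1, separate in control retinas, overlapped. The single Mfp2+/- library was inside the range of the 3 Mfp2+/+ libraries for 5 of the 9 genes, below it for Rdh8, Rbp3 and Rpe65, and above it for Rdh11.

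Whether the genes changed by different amounts was asked with ratios within a library, which do not depend on library scaling, for 6 pairs within and between the cell type groups. They were picked by name among the possible pairs, and 2 further pairs with Rdh8 were left out because its mean was under 10 counts. Each was compared by an exact permutation test, two-sided, whose smallest possible p with 4 against 4 libraries is 0.0286. The log2 ratio of Rdh12 to Rbp3, the 2 photoreceptor genes, went from -1.07 ± 0.12 in control to -2.77 ± 0.15 in Mfp2-/- retinas (SD, n = 4 each, exact permutation p = 0.0286, adjusted over 6 pairs 0.0343). Rdh12 thus fell 3.25-fold further than Rbp3. The 2 Müller glia genes also parted, with a ratio of Rlbp1 to Rdh10 of 5.41 in control and 3.75 in Mfp2-/- retinas (geometric means, the same exact p and adjusted p). Rdh12 exceeded Rdh11 13.7-fold in control and 1.40-fold in Mfp2-/- retinas, and its ratio to Rdh10 went from 15.8 to 0.70, with the same exact p and adjusted p for both. The ratio of Rbp3 to Rlbp1, a secreted photoreceptor carrier and a glial one, went from 6.11 to 1.27, again with that exact p. For the pairs with Rdh12 and for Rbp3 to Rlbp1, the level ranges given above already set the ratios of the groups apart. The exact p of these pairs therefore restates the levels and is no separate support. The ratio of the pigment epithelium genes Rpe65 and Rdh5 overlapped between groups (log2 ratio -0.64 ± 0.58 in control and -0.91 ± 0.59 in Mfp2-/- retinas, SD, n = 4 each, exact permutation p = 0.571).

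The 6 dehydrogenases Rdh5, Rdh8, Rdh10, Rdh11, Rdh12 and Dhrs3 summed to 1015 ± 94.8 CPM over the controls and to 211 ± 16.9 CPM over the Mfp2-/- libraries (SD, n = 4 each), a 4.82-fold difference. Without Rdh12 the other 5 summed to 203 ± 31.0 and 160 ± 12.2 CPM, with overlapping groups. Rdh12 accounted for 78.9%, 80.8%, 79.1% and 81.7% of the dehydrogenase counts in control replicates 1 to 4 and for 26.8%, 23.7%, 24.2% and 21.7% in Mfp2-/- replicates 1 to 4. Its share was steady within each group, and the groups lay over 50 percentage points apart (80.1% ± 1.3 against 24.1% ± 2.1, SD, n = 4 each, exact permutation p = 0.0286, two-sided, adjusted over 6 genes 0.0343). Rdh10 held 5.19%, 4.62%, 5.31% and 4.93% in the controls and 36.0%, 30.9%, 37.5% and 33.7% in the Mfp2-/- libraries, where it was the largest contributor in every library. The mean shares of Rdh11 were 5.78% and 17.3%, those of Dhrs3 6.79% and 11.96%, and those of Rdh5 2.24% and 12.1% in control and Mfp2-/- retinas, each with the same exact p and adjusted p. Shares of a sum are bound to each other, so that Rdh11 and Dhrs3 gained share although their levels fell. Rdh5 gained share although its level did not pass the test, and the level of Rdh10 rose by only 0.51 on the log2 scale. Since Rdh12 held 80.1% of the control counts, its fall by itself raises the other shares. The exact p of those shares is thus no test of a change in level. The share of Rdh8 was below 0.2% in every library and did not pass (exact permutation p = 0.657).

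**Figure D4:**
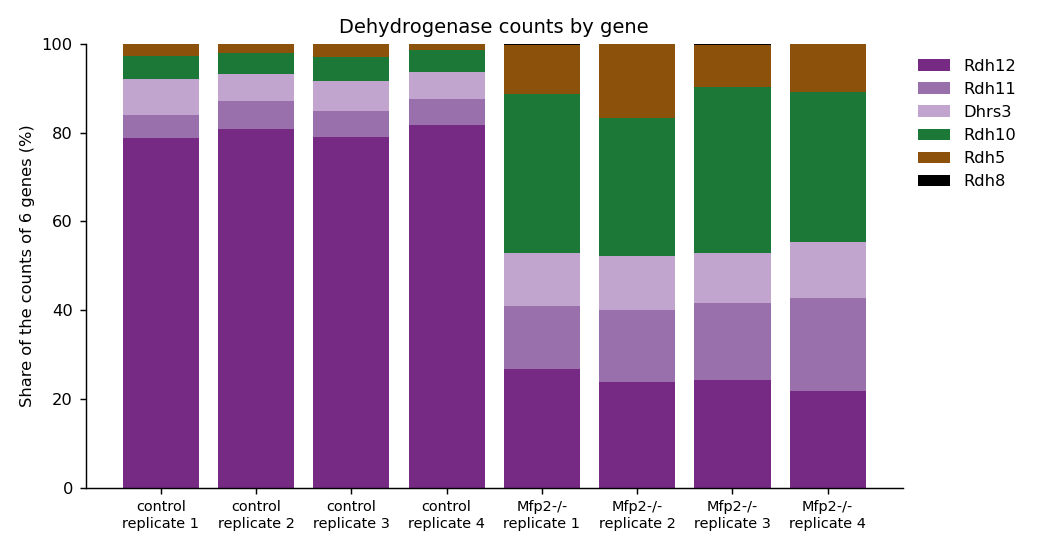
Share (%) of each of 6 dehydrogenases in their summed counts, 1 bar per library. Rdh12 makes up 78.9% to 81.7% of the bar in control and 21.7% to 26.8% in Mfp2-/- libraries. The share of Rdh10 is 4.62% to 5.31% in control and 30.9% to 37.5% in Mfp2-/- libraries, of a smaller sum.

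Markers of the cells in which the genes act moved as well. All 16 rod markers were lower in Mfp2-/- retinas in edgeR's test, with a median log2 fold change of -4.35 and a range of -6.60 to -3.11 (Gnat1, the rod transducin, at -5.39 and Reep6 at -5.38). Of 11 cone markers 7 were lower and 2 higher, with a median of -0.69. The lowest was Guca1a at -3.03, nearer to the least changed rod marker, at -3.11, than to Gnat2, the cone transducin, at -1.03. The 2 higher were Gnb3 at 0.71 and Pde6c at 0.55. Whether the RNA of each marker came from a single cell type was not tested. Of 15 Müller markers 10 were higher and 0 lower, with a median of 0.99 (Apoe at 1.48 and Crym at 1.95). Of 8 gliosis markers 5 were tested and all of these were higher (Lcn2 at 6.05 and Serpina3n at 4.74). Over all genes tested the median was -0.0039, with 13.2% called lower and 13.8% higher. The number of cone markers higher was 1 without any 1 of the control libraries or without Mfp2-/- replicate 1 or 4, and 1 Müller marker, Glul, was lower without Mfp2-/- replicate 3 or without both replicates 2 and 3. Summed over each list, rod and cone markers were lower in every Mfp2-/- library and Müller and gliosis markers higher in every one.

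Each gene was therefore set against the mean log2 CPM of a marker list in the same library, in 11 comparisons by an exact permutation test, two-sided, adjusted over the 11. These comparisons were chosen after the levels had been seen. Relative to 16 rod markers, Rdh12 was higher in Mfp2-/- than in control retinas by 0.57 on the log2 scale, Rbp3 by 2.27, Dhrs3 by 3.14 and Rdh11 by 3.87 (exact permutation p = 0.0286, adjusted p = 0.0449 for each). Thus these genes lost less of their level than the mean rod marker, and Rdh12 came nearest to it. Rdh12 fell further than Gngt1 (-3.11), Rom1 (-3.40), Rcvrn (-3.54) and Cngb1 (-3.78) and less than the other rod markers. It thus lost less than the mean of the list and not less than every marker in it. Rbp3, Dhrs3 and Rdh11 fell by less than any single rod marker, the least changed of which stood at -3.11. For these genes the exact p, at its smallest possible value, therefore restates the levels and is no separate support. Relative to 11 cone markers, Rdh12 fell by 3.25 and Rbp3 fell by 1.55 (the same exact p and adjusted p), whereas Dhrs3 fell by 0.68 with overlapping groups (exact permutation p = 0.0571, adjusted p = 0.0698). Relative to 15 Müller markers, Rlbp1 fell by 0.82 (exact permutation p = 0.0286, adjusted p = 0.0449), so that its nearly equal means stood beside a rise of 10 of the 15 markers. The 5 markers not called had log2 fold changes of -0.52 (Glul), -0.04 (Abca8a), 0.13 (Aqp4), 0.18 (Car2) and 0.57 (Slc6a11). Rlbp1 thus lagged the mean of the list and not every marker in it. Rdh10 differed from the Müller markers by -0.29 (exact permutation p = 0.0571, adjusted p = 0.0698). Relative to 12 pigment epithelium markers, the differences were -0.53 for Rpe65 and -0.26 for Rdh5, with overlapping groups (exact permutation adjusted p = 0.157 and 0.371).

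The other genes of retinoid handling were taken from 6 lists of 47 genes, of which 28 were tested. In edgeR's test 7 were lower and 5 were higher in Mfp2-/- retinas, where 13.2% and 13.8% of all genes tested were called. The median log2 fold change of the 28 genes was 0.0177 against -0.0039 for all genes. The number of these genes higher was 3 without control replicate 3, control replicate 4, Mfp2-/- replicate 3 or both Mfp2-/- replicates 2 and 3. Among those lower were the cone opsins Opn1sw (log2 fold change -3.48, edgeR adjusted p = 1.7e-06) and Opn1mw (-1.71), and Abca4, which moves retinal out of the outer segment discs (-3.20). Rdh12 and Abca4 stood at 0.063 and 0.11 of their control level.

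Of the 14 other dehydrogenases and reductases, 5 were tested and 0 passed in either direction, with a median log2 fold change of 0.31. Of the 7 genes of esterification, isomerization and uptake, Scarb1, a receptor for lipoproteins and carotenoids, was lower (-1.64) and Rrh, the opsin peropsin, higher (0.64). The retinyl ester synthase Lrat, the partner of Rpe65 in the pigment epithelium, did not pass (-0.55, edgeR adjusted p = 0.327), nor did the opsin Rgr (-0.82, adjusted p = 0.0610) or the retinol receptor Stra6 (0.24, adjusted p = 0.619). Lrat, Rrh, Rgr and Stra6 are also in the list of pigment epithelium markers. Of 20 alternative settings, Rrh lost its call in 11 and Rgr gained one in 3.

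Of the retinoid carriers, Crabp1, a retinoic acid binding protein of amacrine cells, was higher (log2 fold change 0.63). Ttr, the carrier of plasma retinol binding protein, did not pass (0.47, adjusted p = 0.220). Among the 8 genes of retinoic acid synthesis and breakdown 2 were tested, and Aldh1a1, which oxidizes retinal to retinoic acid, was higher (1.18, edgeR adjusted p = 0.0012). Its level was 19.9 to 30.2 CPM in control and 44.6 to 75.7 CPM in Mfp2-/- libraries, without overlap. Rdh10 and Aldh1a1, which carry out consecutive steps from retinol to retinoic acid, were both called higher, as were 13.8% of all genes tested. The call of Rdh10 was lost on leaving out any 1 of 3 libraries. Whether the 2 genes act in the same cells here, or whether retinoic acid changed, was not tested. Of 6 retinoic acid receptors, Rxra (-1.03) and Rara (-0.59) were lower and Rarg (1.28) was higher. Rara lost its call in 6 and Crabp1 in 4 of the 20 alternative settings.

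**Figure D5:**
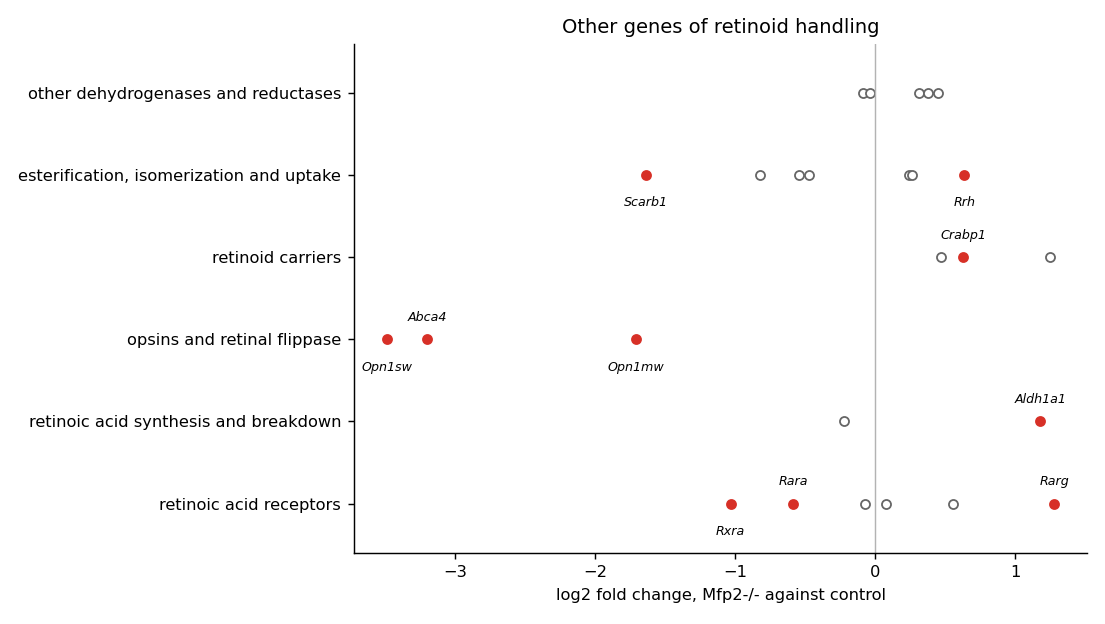
Log2 fold change, Mfp2-/- against control, of genes of 6 lists of retinoid handling, 1 point per gene, red where the adjusted p was under 0.05, with those called drawn only where they are named in the text. Opn1sw, Abca4 and Opn1mw lie between -3.48 and -1.71, and Aldh1a1 and Rarg lie to the right of 1.

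For each gene tested, the genes with the most similar profile were those with the smallest root mean square difference in log2 CPM over the 8 libraries, each centred on its control mean. The nearest to Rdh12 were Samd11 (0.12), Nxnl2 (0.14) and Ppm1n (0.18), and the nearest to Rbp3 were Unc119 (0.095), Uckl1 (0.13) and Agpat3 (0.15). The nearest to Dhrs3 were Atp7b, Epb4.1 and Stk35, and the nearest to Rdh11 were Sec22c, Gm11560 and Cpox. Rdh10 was nearest to Nefl (0.083), Nefm (0.088) and Mapt (0.094), which encode proteins of the neuronal cytoskeleton. Rlbp1 was nearest to Ubald2, Toporsos and March9, Rpe65 to Fam149b, Ccnyl1 and Qtrtd1, and Rdh5 had 2310011J03Rik and Map3k10 among its nearest. The measure takes in the difference between genotypes as well as the spread within them, and none of the 9 genes was among the 3 nearest to another.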

How the data were processed

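RNA of the neural retinas of 8 mice (4 control, 4 Mfp2-/-), 2 retinas per mouse pooled, was made into QuantSeq 3′ libraries and sequenced in reads of 50 bases. The deposited values are raw counts per gene symbol, without normalization. The submitters' processing notes name FastQC 0.11.7, HISAT2, SAMtools 1.5, HTSeq 2.7.14 and mm10. The HISAT2 version, annotation release and use of strand were not given in the sources used here. HTSeq's summary rows, which name no gene, were 59.2% to 66.9% of each table and were left out. A table of the whole series listed 21143 symbols, and 21129 of them had identical counts in the tables used.

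Genotypes follow the labels, with the Mfp2+/- mouse as a control, as in the study. Whether mice shared litters is not given in the labels. Counts were tested in R 4.3.3 with edgeR 4.0.16 (filterByExpr, TMM factors, quasi-likelihood test, Benjamini-Hochberg over 12516 genes, call at an adjusted p under 0.05) in place of limma, which the study used. Standard errors were taken from the fold change and its F statistic, and approximate 95% intervals from these with 6 residual degrees of freedom. CPM used TMM factors, and log2 CPM a prior count of 2. Ratios, shares and marker comparisons used exact permutation tests over libraries. Alternatives were other factors and filters, DESeq2 1.42.0, limma 3.58.1 (voom and trend), the replicate number as a block, the table of the whole series, and leaving out libraries. The code was tested on simulated counts.

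The 9 genes and the lists were chosen with earlier results of these data known. Genes named beside the 9 were the called genes of the retinoid lists, 2 genes of each marker list with the smallest adjusted p, the 3 most abundant pigment epithelium markers and the 3 genes nearest to each member in profile. A few genes that it selects are not reported here. Others named (Lrat, Rgr, Stra6, Ttr, Best1, Tyr, Slc45a2, Pmel, Mitf, Tyrp1, Glul, Abca8a, Aqp4, Car2, Slc6a11, Gnb3, Pde6c, Gngt1, Rom1, Rcvrn, Cngb1) were chosen after their values were seen, to show how a list stood. Coordinates are GENCODE M21 on GRCm38, and promoters are RefSeq on GRCm38.p6.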

Additional observations from a re-analysis of the deposited data

Results flagged for a closer look

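The log2 ratio of Rdh12 to Rbp3 in control replicate 4 was -1.24, whereas the other 3 control libraries lay between -1.02 and -0.9997. The gap was 0.93 of the range of the group, above Dixon's critical value for 4 samples at 95%. It was the 1 such library in 42 groups of values examined, and chance alone would give about 1 in 20. All 4 Mfp2-/- libraries, at -2.98 to -2.63, were below it.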

How the results depend on the processing

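The calls of Rdh12, Rbp3, Dhrs3 and Rdh11 held under all 20 alternatives, with log2 fold changes of -4.05 to -3.87, -2.43 to -2.12, -1.56 to -1.34 and -0.75 to -0.57. That of Rdh10 ranged from 0.45 to 0.63 and lost its call when 1 of 3 libraries was left out, so that the count of members called higher was 0 to 1 on leaving out 1 library (Rdh10 at 0.45 to 0.59). The uncalled Rlbp1 ranged from -0.22 to 0.12, Rpe65 from -0.23 to 0.11 and Rdh5 from -0.13 to 0.35, across 0. Calls over all genes numbered 3377, and 2845 with a replicate block. Without both Mfp2-/- replicates 2 and 3 the 5 calls of the members were the same. Among the 20 alternatives, the table of the whole series had identical counts for the shared symbols and returned the same fit. It was therefore no separate check.

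On leaving out 1 library, 3 to 6 genes of the retinoid lists were higher (5 in the full data), 1 to 2 cone markers, 0 to 1 Müller markers lower, 0 to 1 pigment epithelium markers lower and 1 to 4 higher (2 in the full data). Without both Mfp2-/- replicates 2 and 3, 3 retinoid genes and 1 pigment epithelium marker were higher and 1 Müller marker lower. With 10 counts in every library 3 gliosis markers and 1 pigment epithelium marker were higher, since fewer genes were tested. With no factors 4 pigment epithelium markers were higher, and with no filter or DESeq2 1 was lower. With Dhrs3 and Rdh11 left out of the sum, the gain in share was 43.1 percentage points for Rdh10 and 14.5 for Rdh5, against 29.5 and 9.81. The cause of the other shifts was not tested. No called result changed sign, whereas Rlbp1, Rpe65 and Rdh5, which were not called, did.

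With the replicate number as a block 1 cone marker and 1 pigment epithelium marker were higher, and the calls of the members did not change (Rdh10, edgeR adjusted p = 0.0347). Same-numbered libraries did not deviate together in every pair (correlations of 0.080, -0.16, 0.25 and 0.21), so the numbers were not treated as pairs. Depth limits Rdh8 and, with 22 to 101 counts per library, Rpe65 and Rdh5.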
